A study of Mus musculus with 8 samples.

Results

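The 8 genes described here, Inmt, Ces1d, Limch1, Slc7a10, Spon1, Scn7a, Gyg and Tcf21, mark alveolar fibroblasts, the stromal cells of the thin walls between the air sacs of the lung. They were taken by symbol from the deposited comparison and joined by identifier to the count table. All 8 were found among 49671 gene identifiers, and all 8 passed the filter on low counts, which left 20162 genes. RNA had been sequenced from sorted cells of adult mouse lung, 4 mice of genotype Gli2creERT2-tdt:R26RYFP/SmoM2 and 4 control mice of genotype Gli2creERT2-tdt:R26RYFP. Both genotypes carry a tamoxifen-inducible Cre recombinase expressed with Gli2 and a Rosa26 reporter for yellow fluorescent protein (YFP). The SmoM2 mice also carry SmoM2, an activated form of Smoothened that signals without a Hedgehog ligand. For the SmoM2 mice the labels give tamoxifen by intraperitoneal injection over 5 days, each day at 200 mg per kg, and the dosing of the controls is not given in the sources used here. Live YFP-positive cells were sorted from digested whole lung, to take cells that expressed Gli2 and recombined the reporter. Each library is a mixture, and the sort had no gate for a fibroblast type. Marker genes of epithelial and immune cells were also found in the libraries, as given below. The design sets cells with the activated Smoothened beside cells without it.

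Lung fibroblasts differ by position. Alveolar fibroblasts lie beside the alveolar epithelium and carry the growth factor receptor Pdgfra and the matrix protein gene Npnt, while adventitial fibroblasts surround airways and vessels and carry genes such as Pi16, Dpt and Dcn. The 8 genes cover several functions of the alveolar type. Tcf21 encodes a basic helix-loop-helix transcription factor that lung mesenchyme needs during development. Spon1 and Limch1 encode a secreted matrix protein and a cytoskeletal regulator, Slc7a10 and Scn7a encode membrane proteins, and Inmt, Ces1d and Gyg encode enzymes. In bulk RNA, fewer cells of a type and less RNA per cell cannot be told apart, which holds for each value below.

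Library totals lay between 91.6 and 111.6 M units of estimated count. Values above 0 were most often 5 units, in each of the 8 libraries, so 1 sequenced fragment was taken as 5 units, which gives 18.3 to 22.3 M fragments. The lowest value of any of the 8 genes was 1506 units of Slc7a10, about 301 fragments, with a counting error of 5.76%, so the spread between mice exceeded the counting error for all 8. Values are given as CPM (the share of a library's counts, scaled to a fixed total) on library sizes scaled by the trimmed mean of M-values (TMM), and mice are named by group and column number. Gli1 and Ptch1, genes that the Hedgehog pathway induces, check the label: Gli1 averaged 101 ± 21.5 CPM in SmoM2 and 99.3 ± 32.9 CPM in control, and Ptch1 averaged 159 ± 50.8 CPM in SmoM2 and 173 ± 57.4 CPM in control (SD, n = 4 each). Neither target was higher beyond the spread between mice, so the libraries are called SmoM2-labelled.

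The windows around the transcription starts are shown because several of the 8 genes varied together between mice and because 1 of them, Tcf21, encodes a factor that binds E-boxes. That likeness was weaker without control 4 and SmoM2 3, where Tcf21 ran against Inmt, as given below. RefSeq (GRCm38.p6, the build the authors name as mm10) gave 8 windows for 6 of the 8 genes (Inmt, 3 starts of Limch1, Slc7a10, Scn7a, Gyg and Tcf21), each running from 250 bases before to 50 bases after the start. Ces1d and Spon1 had no entry. The general E-box CANNTG, on either strand, was in 6 of the 8 windows (4 of the 6 genes), against 72.3% of 32851 promoter windows of the same length. The E-box CAGCTG, which also matches CANNTG, was in 2 of the 8 windows, those of Inmt and Scn7a, against 16.3% of all windows. The GLI site GACCACCCA was in 0 of the 8 windows, against 0.253% of all windows. Below are the gene with the highest level (Inmt), the other gene with CAGCTG (Scn7a), and the genes with the largest differences between the groups (Slc7a10 and Gyg), each 5′ to 3′ on the gene's strand, with every CANNTG in capitals.
Inmt, minus strand, chr6:55174941-55175240: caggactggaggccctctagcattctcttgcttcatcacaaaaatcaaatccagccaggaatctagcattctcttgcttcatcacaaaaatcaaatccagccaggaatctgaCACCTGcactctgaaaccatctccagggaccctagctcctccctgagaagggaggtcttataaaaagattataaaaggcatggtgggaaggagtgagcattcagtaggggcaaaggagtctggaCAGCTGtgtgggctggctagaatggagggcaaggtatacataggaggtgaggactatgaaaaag
Scn7a, minus strand, chr2:66784861-66785160: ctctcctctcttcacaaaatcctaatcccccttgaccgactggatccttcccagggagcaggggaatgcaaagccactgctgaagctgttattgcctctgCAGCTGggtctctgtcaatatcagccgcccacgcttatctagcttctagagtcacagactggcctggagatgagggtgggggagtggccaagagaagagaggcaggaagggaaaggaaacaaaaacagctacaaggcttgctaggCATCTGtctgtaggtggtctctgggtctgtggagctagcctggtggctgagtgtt
Slc7a10, plus strand, chr7:35186135-35186434: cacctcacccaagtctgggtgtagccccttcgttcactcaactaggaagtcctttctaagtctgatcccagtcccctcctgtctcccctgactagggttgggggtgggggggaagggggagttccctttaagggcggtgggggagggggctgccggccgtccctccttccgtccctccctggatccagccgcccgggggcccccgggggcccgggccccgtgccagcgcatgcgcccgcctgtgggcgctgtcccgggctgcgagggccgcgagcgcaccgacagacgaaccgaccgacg
Gyg, minus strand, chr3:20155067-20155366: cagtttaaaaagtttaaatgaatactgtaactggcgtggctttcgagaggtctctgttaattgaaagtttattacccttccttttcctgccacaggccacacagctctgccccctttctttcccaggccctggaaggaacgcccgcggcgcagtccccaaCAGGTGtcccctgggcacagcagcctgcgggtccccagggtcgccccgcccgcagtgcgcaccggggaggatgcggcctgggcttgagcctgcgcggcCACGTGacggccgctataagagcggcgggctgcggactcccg
The Slc7a10 window has no CANNTG and a GC content of 70.7%, while that of Inmt has a GC content of 47.7%. A match is a run of letters, and binding was not measured.

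Against their length, the 8 genes spanned a wide range of levels in the sorted cells. In CPM per kilobase of exon, Inmt was at 1964 ± 449 in SmoM2-labelled and 2204 ± 500 in control libraries, which placed it 6th of 20073 genes with an exon length. Over all 8 libraries the order in mean CPM per kilobase was Inmt (2084), Ces1d (150.1), Limch1 (123.8), Spon1 (114.2), Tcf21 (80.6), Gyg (65.2), Scn7a (56.6) and Slc7a10 (15.5), against a median of 2.52 over those genes. Inmt was above Ces1d, Spon1 above Tcf21, and Scn7a above Slc7a10 in 8 of 8 libraries. The other neighbours were not separated in every mouse, with Ces1d above Limch1 and Tcf21 above Gyg in 7 of 8 and Limch1 above Spon1 and Gyg above Scn7a in 5 of 8. The markers of the alveolar type were thus present in the sorted cells: 7 of the genes lay at or above the 96.4th percentile per kilobase and Slc7a10 at the 85.5th percentile.

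Between the genotypes, all 8 genes had a lower mean in the SmoM2-labelled libraries and 0 of 8 passed edgeR's quasi-likelihood test, where 0% of the 20162 genes passed. The median log2 fold change of the 8 was −0.18, beside −0.00 over all genes tested, where 51.0% were lower. Slc7a10 and Gyg had the largest differences, at 0.54-fold and 0.65-fold of control. Slc7a10 was the 1 gene of the 8 with an unadjusted p under 0.05, beside 3.75% of all genes. At that p 756 of all genes were found, Slc7a10 among them. By adjusted p DESeq2 called 67 genes, none of them among the 8, and limma called 0. The groups overlapped for all 8 genes, while among all genes 2.44% had groups that did not overlap and 1.42% did so with SmoM2 lower. Without control 4 the median of the 8 was −0.02 and 5 of 8 were lower, and without SmoM2 3 the median was −0.35.

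**Figure D1:**
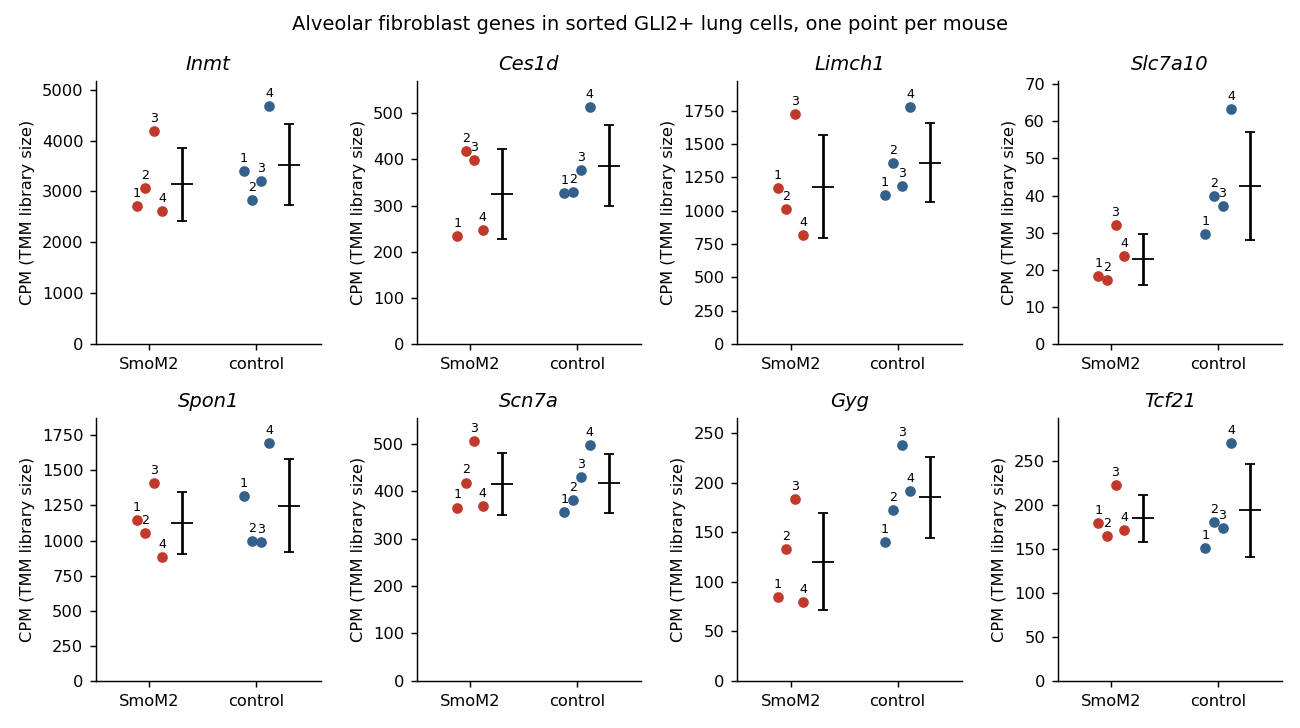
CPM on TMM library sizes (y axis, from 0) of the 8 genes in SmoM2-labelled (left, red) and control (right, blue) mice, 4 each, numbered by library, with the mean and SD in black. Control 4 was the highest control for 7 of the genes, and SmoM2 3 the highest SmoM2-labelled mouse for 7.

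The transcription factor Tcf21 (ENSMUSG00000045680) lies on chromosome 10 from 22817281 to 22820174, minus strand (mm10, GENCODE M21). It was at 179.5, 164.5, 223.1 and 171.7 CPM in SmoM2-labelled mice 1 to 4, against 151.0, 180.9, 173.3 and 270.4 CPM in control mice 1 to 4. Control 4 alone stood above every SmoM2-labelled mouse, and the other controls lay within or below the SmoM2-labelled range. The log2 fold change was −0.07 with an SE of 0.19 and a 95% interval from −0.50 to 0.36 (edgeR adjusted p = 0.9999), and it was 0.13 without control 4. Factors that pair with or relate to Tcf21 were spread on both sides, with 7 of 13 higher, 6 lower, 0 called and a median log2 fold change of 0.03 (−0.15 without SmoM2 1 and −0.03 without control 4). The pairing factor Tcf4 averaged 169 ± 11.3 CPM in SmoM2-labelled and 154 ± 40.2 CPM in control mice. Id3, an inhibitor of such pairing, averaged 825 ± 134 CPM in SmoM2-labelled and 897 ± 338 CPM in control mice.

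Spon1 encodes F-spondin, a secreted protein of the extracellular matrix (ENSMUSG00000038156, chromosome 7 from 113765998 to 114043370, plus strand). Its levels were 1145, 1054, 1409 and 880 CPM in SmoM2-labelled mice 1 to 4, and 1319, 998, 987 and 1696 CPM in control mice 1 to 4. The ranges overlapped over most of their length, with the lowest mouse SmoM2 4 and the highest control 4. Its log2 fold change was −0.16, SE 0.21, interval −0.64 to 0.33, and 0.03 without control 4. Among other thrombospondin-type and F-spondin-binding genes, 4 of 7 were higher, 3 lower, and 0 called (median 0.09, −0.07 without SmoM2 3). The matrix gene Thbs1 was at 7799 ± 2402 CPM in SmoM2-labelled and 8336 ± 4297 CPM in control mice, and App, the amyloid precursor that F-spondin binds, at 969 ± 26.1 CPM in SmoM2-labelled and 909 ± 54.9 CPM in control mice.

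Limch1 encodes a protein with LIM and calponin-homology domains that activates non-muscle myosin II in human cells (ENSMUSG00000037736, chromosome 5 from 66745827 to 67057158, plus strand). SmoM2-labelled mice 1 to 4 had 1168, 1013, 1724 and 821 CPM, against 1117, 1360, 1184 and 1776 CPM in control mice 1 to 4. SmoM2 3 lay beside control 4 at the top, and SmoM2 2 and SmoM2 4 lay below every control. For Limch1 the log2 fold change was −0.20, SE 0.24, interval −0.76 to 0.36, and −0.05 without control 4. Of 7 genes of non-muscle myosin II and the Limch1 relative Lmo7, 6 were lower, 1 higher and 0 called, with a median of −0.24. With 1 library left out that median lay between −0.34 without SmoM2 3 and −0.13 without SmoM2 2 or SmoM2 4. The heavy chain Myh10 averaged 671 ± 86.8 CPM in SmoM2-labelled and 805 ± 121 CPM in control mice, and Myh9 averaged 507 ± 56.9 CPM in SmoM2-labelled and 531 ± 108 CPM in control mice. Lmo7 was at 7.85 ± 1.05 CPM in SmoM2-labelled and 11.3 ± 0.87 CPM in control mice. Its groups did not overlap, as for 1.42% of all genes with SmoM2 lower. The log2 fold change of Lmo7 was −0.52, SE 0.13, with an unadjusted p of 0.00367 and an edgeR adjusted p of 0.9999. Of all genes, 2.01% were lower with an unadjusted p under 0.05.

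Slc7a10 encodes Asc-1, a carrier of small neutral amino acids such as glycine, alanine and D-serine (ENSMUSG00000030495, chromosome 7 from 35186385 to 35201114, plus strand). It was at 18.3, 17.2, 32.0 and 23.7 CPM in SmoM2-labelled mice 1 to 4, against 29.5, 39.9, 37.3 and 63.2 CPM in control mice 1 to 4. SmoM2 3 stood above control 1, and the other SmoM2-labelled mice stood below all controls. The means were 22.8 ± 6.75 CPM in SmoM2-labelled and 42.5 ± 14.5 CPM in control mice (SD, n = 4 each). The log2 fold change was −0.90, SE 0.27, with an interval from −1.52 to −0.28, an unadjusted p of 0.00996, rank 157 of 20162 genes by p, and an edgeR adjusted p of 0.9999. The authors' deposited table gives means of 2293 in SmoM2 and 4257 in control, a p of 0.012 and an adjusted p of 1 for Slc7a10. Without control 4 the log2 fold change was −0.64.

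Sex, read from Xist and Y-linked genes, was balanced, with 2 males and 2 females in each group. Slc7a10 was at 18.3 and 17.2 CPM in SmoM2-labelled males, against 29.5 and 37.3 CPM in control males. It was at 32.0 and 23.7 CPM in SmoM2-labelled females, against 39.9 and 63.2 CPM in control females. The SmoM2-labelled mice thus lay below the controls of their own sex in both sexes, a pattern that 2.87% of all genes tested show in that direction, and of the 8 genes Slc7a10 alone. With sex as a term the unadjusted p was 9.71e-04 and the edgeR adjusted p 0.674.

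Exons of Slc7a10 overlap those of Lrp3, which lies on the opposite strand, over 377 bases or 17.9% of the exon length of Slc7a10. The sources used here do not state that strand was used in counting, so reads of these 2 genes may not be told apart there. Lrp3, a lipoprotein receptor gene, held 66.8 ± 8.57 CPM in SmoM2-labelled and 62.7 ± 4.74 CPM in control mice, a log2 fold change of 0.09, SE 0.11. Of the other amino acid carriers of the SLC7 family and their heavy chains, 9 of 12 were measured, 6 of them higher, 3 lower and 0 called (median 0.14, −0.03 without SmoM2 4). Slc3a2, which encodes a heavy chain that partners Asc-1, averaged 143 ± 22.1 CPM in SmoM2-labelled and 157 ± 33.1 CPM in control mice, and Slc7a6 78.2 ± 5.68 CPM in SmoM2-labelled and 69.3 ± 22.7 CPM in control mice.

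Scn7a encodes Nax, a sodium channel relative that senses the sodium level in mouse brain (ENSMUSG00000034810, chromosome 2 from 66673425 to 66784914, minus strand). SmoM2-labelled mice 1 to 4 had 366, 418, 506 and 369 CPM, against 356, 381, 431 and 498 CPM in control mice 1 to 4. The means were 415 ± 65.4 CPM in SmoM2-labelled and 417 ± 62.5 CPM in control mice. The log2 fold change was −0.01, SE 0.15, with an interval from −0.34 to 0.33, the narrowest of the 8. Of 13 other sodium channel subunits, 12 were measured, 8 of them higher, 4 lower and 0 called (median 0.18, −0.01 without control 4 or without SmoM2 4). Scn3a, a pore-forming subunit gene, was at 63.8 ± 21.7 CPM in SmoM2-labelled and 71.5 ± 29.8 CPM in control mice, and its groups overlapped.

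Inmt encodes a methyltransferase that acts on tryptamine and related amines (ENSMUSG00000003477, chromosome 6 from 55170626 to 55175043, minus strand). Its levels were 2716, 3067, 4180 and 2610 CPM in SmoM2-labelled mice 1 to 4, and 3398, 2833, 3200 and 4674 CPM in control mice 1 to 4. SmoM2 3 exceeded every control other than control 4. Inmt had a log2 fold change of −0.17, SE 0.21, interval −0.64 to 0.31, and −0.00 without control 4. Of 6 other small-molecule methyltransferase genes, 5 were lower, 1 higher and 0 called (median −0.22), and without control 4, 3 of 6 were lower (median −0.04). Mettl7a1 averaged 371 ± 125 CPM in SmoM2-labelled and 417 ± 150 CPM in control mice. The nicotinamide methyltransferase gene Nnmt was the 1 higher gene, at 17.4 ± 4.84 CPM in SmoM2-labelled and 12.6 ± 1.48 CPM in control mice (unadjusted p 0.0497, edgeR adjusted p 0.9999).

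Ces1d encodes a carboxylesterase that cleaves ester bonds of lipids and drugs (ENSMUSG00000056973, chromosome 8 from 93166068 to 93197838, minus strand). SmoM2-labelled mice 1 to 4 had 235, 418, 399 and 247 CPM, against 328, 329, 377 and 513 CPM in control mice 1 to 4. The SmoM2-labelled mice split, with SmoM2 2 and SmoM2 3 above 3 of the 4 controls and SmoM2 1 and SmoM2 4 below all controls. Ces1d had a log2 fold change of −0.25, SE 0.24, interval −0.79 to 0.29, and −0.09 without control 4. Ces1d lies among close copies of itself, and how the authors' counting shared reads among them is not given, so the split is uncertain. Of the 7 other Ces1 genes 4 were measured, 2 higher, 2 lower and 0 called (median 0.52, and −0.39 without control 4 and SmoM2 3). The 2 higher genes, Ces1a and Ces1e, averaged only 0.11 and 0.14 CPM over the 8 libraries. Their log2 fold changes were 2.48 (SE 1.30) and 1.31 (SE 0.59), so the positive median rests on genes with very few counts. The 2 lower genes were Ces1f and Ces1g. Ces1f averaged 2.38 ± 1.33 CPM in SmoM2-labelled and 3.03 ± 2.79 CPM in control mice, and Ces1g 1.05 ± 0.61 CPM in SmoM2-labelled and 1.26 ± 0.41 CPM in control mice.

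Gyg encodes glycogenin, which starts new glycogen chains (ENSMUSG00000019528, chromosome 3 from 20122084 to 20155317, minus strand). It was at 84.4, 133, 184 and 79.9 CPM in SmoM2-labelled mice 1 to 4, against 140, 173, 237 and 191 CPM in control mice 1 to 4. SmoM2 3 lay within the control range, and the other SmoM2-labelled mice lay below all controls. The means were 120 ± 48.7 CPM in SmoM2-labelled and 185 ± 40.8 CPM in control mice (SD, n = 4 each). Gyg had a log2 fold change of −0.62, SE 0.28, with an interval from −1.27 to 0.02, an unadjusted p of 0.0573 and an edgeR adjusted p of 0.9999. In the authors' deposited table Gyg has a p of 0.043 and an adjusted p of 1. Without SmoM2 3 the log2 fold change was −0.90 with an unadjusted p of 0.00587 and an edgeR adjusted p of 0.593.

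Of 17 other genes of glycogen synthesis and breakdown 16 were measured, with 11 lower, 5 higher, 0 called and a median of −0.03, and 8 of 16 were lower without control 2 or control 3. An unadjusted p under 0.05 was found for 2 of them, both lower, beside 2.01% of all genes lower at that p. Stbd1, which encodes a protein that tethers glycogen to membranes, was at 21.8, 25.2, 30.0 and 19.9 CPM in SmoM2-labelled mice 1 to 4, against 33.3, 63.8, 70.6 and 63.1 CPM in control mice 1 to 4. Its groups did not overlap, as for 1.42% of all genes with SmoM2 lower. The log2 fold change of Stbd1 was −1.25, SE 0.24, with an edgeR adjusted p of 0.614. Pygm, the muscle form of glycogen phosphorylase, averaged 57.1 ± 10.4 CPM in SmoM2-labelled and 69.8 ± 3.40 CPM in control mice (log2 fold change −0.29, SE 0.13, edgeR adjusted p 0.9999). The groups overlapped for the 2 most abundant genes of the list. The lysosomal glucosidase gene Gaa averaged 317 ± 24.8 CPM in SmoM2-labelled and 300.2 ± 14.5 CPM in control mice (log2 fold change 0.08, SE 0.09, edgeR adjusted p 0.9999). Ugp2, which makes the sugar donor for glycogen, averaged 141 ± 28.1 CPM in SmoM2-labelled and 112 ± 16.1 CPM in control mice (log2 fold change 0.33, SE 0.17, edgeR adjusted p 0.9999).

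Of 16 other alveolar fibroblast genes, 15 were lower, 1 higher and 0 called, with a median log2 fold change of −0.30. An unadjusted p under 0.05 was found for 3, all lower, beside 2.01% of all genes lower at that p. With 1 library left out, 14 or 15 of 16 were lower, and the median lay between −0.49 without SmoM2 3 and −0.21 without control 4. Such a p was found for 7 without SmoM2 3, for 4 without control 1 or control 4, and for 3 without control 2. It was found for 2 without control 3, SmoM2 1, SmoM2 2 or SmoM2 4. Without control 4 and SmoM2 3 together, an alternative chosen after seeing the data, it was found for 8. The share over all genes in those fits is not given here. Wnt2, a Wnt ligand of distal lung stroma, was at 12.8, 14.3, 15.3 and 11.6 CPM in SmoM2-labelled mice 1 to 4, against 22.4, 25.9, 27.4 and 25.2 CPM in control mice 1 to 4 (edgeR adjusted p 0.138). The others were the homeobox gene Meox2 at 41.2 ± 14.3 CPM in SmoM2-labelled and 63.98 ± 7.75 CPM in control mice, and the cadherin gene Cdh11 at 355 ± 52.4 CPM in SmoM2-labelled and 478 ± 114 CPM in control mice. The receptor gene Pdgfra was the 1 higher gene, at 1966 ± 155 CPM in SmoM2-labelled and 1748 ± 293 CPM in control mice, and Npnt was at 1007 ± 174 CPM in SmoM2-labelled and 1071 ± 180.5 CPM in control mice. The groups of Wnt2 did not overlap, as for 1.42% of all genes with SmoM2 lower, while those of Pdgfra and Npnt did.

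**Figure D2:**
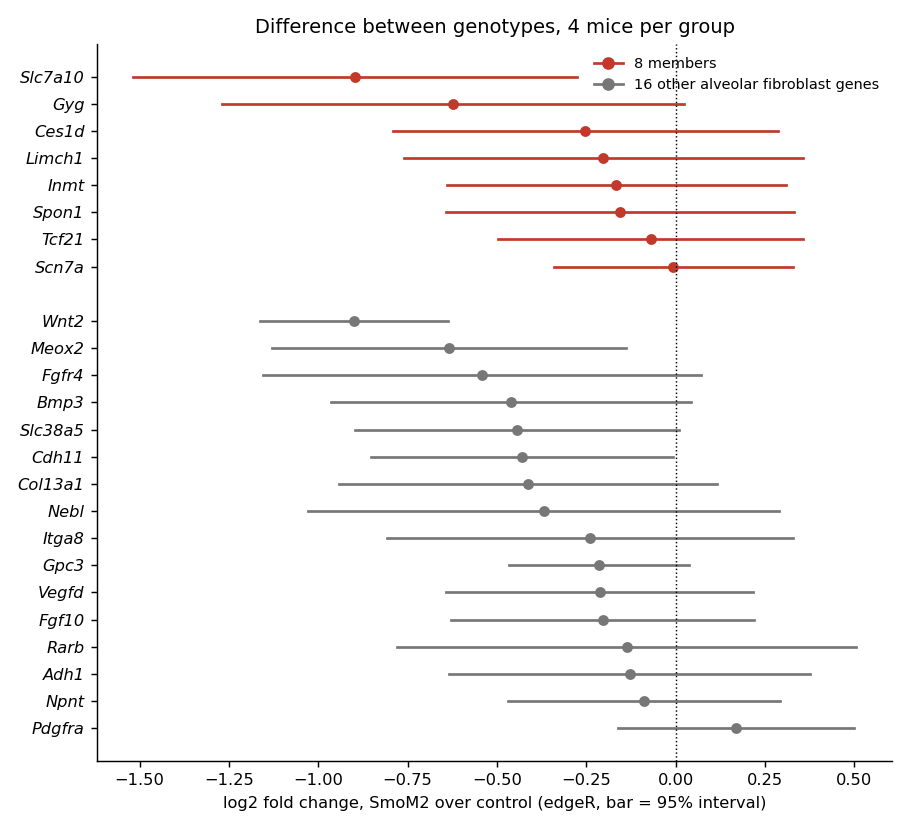
Log2 fold change of SmoM2-labelled over control mice (x axis) with 95% intervals from edgeR, for the 8 genes (red) and 16 other alveolar fibroblast genes (grey), each group sorted. The interval of Slc7a10 (−1.52 to −0.28) lies below 0, those of the other 7 include 0, and Wnt2 leads the grey group.

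Within each group the mice differed from each other, and they did so together over the 8 genes. Control 4 was among the 2 highest of all 8 libraries for 8 of 8 genes, and SmoM2 3 was for 5 of 8. SmoM2 1 and SmoM2 4 were each among the 2 lowest for 5 of 8 genes. The mean standardised log2 level of the 8 genes was −0.78, −0.35, 0.89 and −1.06 in SmoM2-labelled mice 1 to 4, and −0.26, −0.10, 0.13 and 1.52 in control mice 1 to 4. The highest and the lowest SmoM2-labelled mice were thus further apart than the group means. Control 4, the highest mouse, was also the deepest library with 111.6 M units, while SmoM2 3 had 104.4 M, SmoM2 1 had 105.5 M and SmoM2 4 had 104.8 M. The part of depth in this order was not tested.

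**Figure D3:**
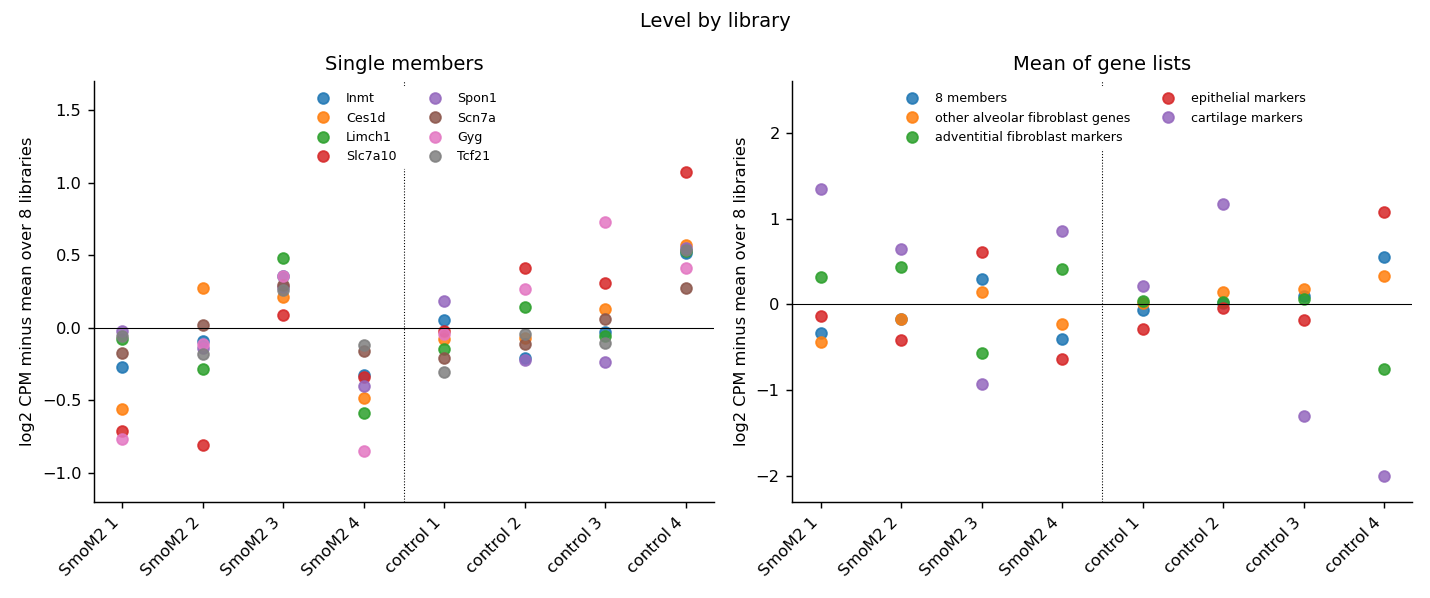
Level in each library as log2 CPM minus the mean over the 8 libraries (y axis), SmoM2-labelled mice left of the dotted line and controls right of it. Single genes are at left, and means of gene lists at right, where the adventitial and cartilage means lie lowest in control 4 and the epithelial mean lies highest there.

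Over the 8 libraries, Pearson's r of log2 CPM was above 0 for 28 of 28 pairs of the 8 genes, from 0.37 for Spon1 and Gyg to 0.90 for Inmt and Spon1, with a median of 0.68. With the group means removed the median was 0.75 and 28 of 28 were above 0. Over all 58704030 pairs of 10836 other genes that averaged 5 CPM or more, the median was 0.004, with group means not removed. That value stands beside the 0.68, and none was computed to stand beside the 0.75. Libraries are shared by every pair, and the genes were chosen as markers of 1 cell type, so these values are a description. The likeness was weaker without 2 of the mice: without control 4 and SmoM2 3 the median was 0.28, with 22 of 28 pairs above 0. The lowest r was then −0.73, for Inmt and Tcf21. In that setting the r of Tcf21 was also below 0 with Spon1 (−0.61), Ces1d (−0.34) and Gyg (−0.06). It was above 0 with Limch1 (0.28), Scn7a (0.19) and Slc7a10 (0.10).

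**Figure D4:**
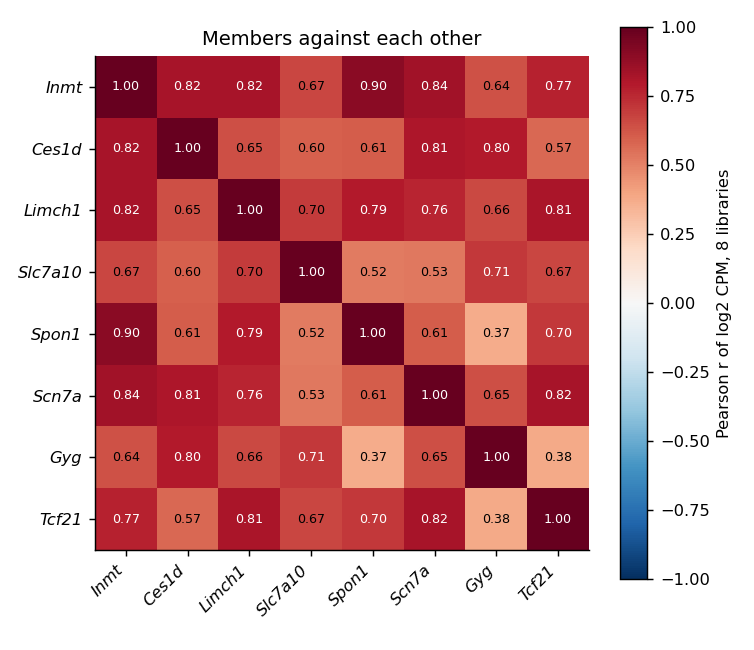
Pearson's r of log2 CPM over 8 libraries for each pair of the 8 genes (rows and columns), in colour from −1 to 1 and printed in each cell. All cells are above 0, and the lowest are those of Gyg with Spon1 (0.37) and with Tcf21 (0.38).

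Within a library, each gene was also set against the rest. Relative to the mean log2 CPM of the other 7, Scn7a was at 0.27, 0.30, 0.10 and 0.37 in SmoM2-labelled mice 1 to 4, against −0.07, −0.06, 0.05 and −0.23 in control mice 1 to 4. Its groups did not overlap in this measure, while those of each other gene did, and no share over all genes was computed. The level of Scn7a itself had a log2 fold change of −0.01, while the other 7 include Slc7a10 at −0.90 and Gyg at −0.62. Slc7a10 was at −4.66, −4.96, −4.45 and −4.15 in SmoM2-labelled mice 1 to 4, against −4.17, −3.78, −3.98 and −3.64 in control mice 1 to 4, and SmoM2 4 overlapped the controls. Inmt kept nearly the same distance to the others in the SmoM2-labelled mice, at 3.58 ± 0.01, against 3.43 ± 0.17 in controls (SD, n = 4 each). These differences describe the 8 genes against each other, with no test.

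Among the 10836 other genes, the 5 whose log2 CPM was most like the mean standardised level of the 8 were Tmem204 (r = 0.98, rho = 0.93), Mmd (r = 0.98, rho = 0.93), Mprip (r = 0.98, rho = 0.93), Itpr1 (r = 0.98, rho = 0.95) and Nxt2 (r = 0.98, rho = 0.98). Without control 4 and SmoM2 3, their r lay between 0.89 for Itpr1 and 0.93 for Mprip. Tmem204 encodes a membrane protein and was at 158, 166, 212 and 147 CPM in SmoM2-labelled mice 1 to 4, against 180.3, 180.5, 176 and 241 CPM in control mice 1 to 4. The 5 with the lowest r were Galnt10 (r = −0.99, rho = −1), Sergef (r = −0.99, rho = −0.93), Ampd2 (r = −0.98, rho = −0.95), Igf1 (r = −0.98, rho = −0.98) and Fap (r = −0.98, rho = −0.98). Fap, which encodes the surface protease fibroblast activation protein, was at 35.0, 34.5, 12.3 and 59.2 CPM in SmoM2-labelled mice 1 to 4, against 25.6, 32.5, 22.1 and 7.90 CPM in control mice 1 to 4. Igf1, an insulin-like growth factor gene, was at 210.1, 182, 124 and 203 CPM in SmoM2-labelled mice 1 to 4, against 181, 173, 159 and 92.4 CPM in control mice 1 to 4. Both were lowest in control 4 and next lowest in SmoM2 3, where the 8 genes were high. In all, 131 genes had an r above 0.9 and 182 an r below −0.9.

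Other cell types in the sorted libraries were followed by marker lists, and each list's median r to the 8 genes is given over the 8 libraries and then without control 4 and SmoM2 3. Adventitial fibroblast markers ran against the 8 genes, with an r below 0 for 13 of 14 and a median r of −0.86 (−0.48 without the 2 libraries). Dcn, which encodes the proteoglycan decorin, had the lowest r of the 14, at −0.97. Dcn was at 5735, 5029, 2286 and 5972 CPM in SmoM2-labelled mice 1 to 4, against 3697, 4187, 4053 and 1900 CPM in control mice 1 to 4. Between the genotypes 13 of these 14 markers were higher and 1 lower, with 0 called and a median log2 fold change of 0.35. Without control 4 the count was 11 of 14 higher and the median 0.23, without SmoM2 4 the median was 0.22, and without SmoM2 3 it was 0.57. The summed level of the 14 ranged from 31123 to 51665 CPM in SmoM2-labelled and from 30390 to 42244 CPM in control mice, and none of them was at 0 in a library. Most of that sum was Gsn, at 32409 ± 6107 CPM in SmoM2-labelled and 29734 ± 3300 CPM in control mice.

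Cartilage markers also ran against the 8 genes, with an r below 0 for 8 of the 8 compared and a median r of −0.85 (−0.66 without the 2 libraries). Their summed level ranged from 325 to 1813 CPM in SmoM2-labelled and from 138 to 1343 CPM in control mice, with 10 of 10 higher in the SmoM2-labelled libraries, 0 called and a median of 0.70. Without control 4, 8 of 10 were higher and the median was 0.36, and it was also 0.36 without SmoM2 1 and 1.32 without control 2. Immune cell markers were higher in 11 of 14 (median 0.45, 0 called), but in 7 of 14 without SmoM2 4 (median 0.01). Their median r was −0.39 (−0.45 without the 2 libraries), and their summed level ranged from 532 to 1614 CPM in SmoM2-labelled and from 542 to 745 CPM in control mice.

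Epithelial markers ran with the 8 genes, with an r above 0 for 8 of 9 and a median r of 0.90 (0.29 without the 2 libraries). Sftpc, the surfactant gene of alveolar type 2 cells, was at 213, 129, 564 and 86.4 CPM in SmoM2-labelled mice 1 to 4, against 162, 187, 207 and 992 CPM in control mice 1 to 4. The summed level of the 12 epithelial markers ranged from 292 to 943 CPM in SmoM2-labelled and from 354 to 1466 CPM in control mice, none was at 0 in a library, and Epcam averaged 2.07 ± 0.71 CPM in SmoM2-labelled and 2.25 ± 0.93 CPM in control mice. Of the 12 epithelial markers 10 were lower and 2 higher, with 0 called and a median of −0.34. Without control 4, 3 of 12 were lower and the median was 0.15, and without SmoM2 3 it was −0.83. Endothelial markers were lower in 9 of 12 (0 called), with a median log2 fold change of −1.05, or −0.19 with 7 of 12 lower without control 4. Their median r was 0.37 (0.05 without the 2 libraries), and their summed level ranged from 123 to 195 CPM in SmoM2-labelled and from 125 to 247 CPM in control mice.

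Mesothelial markers were lower in 10 of 10, with 0 called and a median log2 fold change of −1.19. An unadjusted p under 0.05 was found for 7 of the 10, all lower, beside 2.01% of all genes. Their summed level was 108 to 229 CPM in SmoM2-labelled and 283 to 508 CPM in control mice, so the sums did not overlap. Their mean log2 CPM did overlap, at 2.85 to 4.00 in SmoM2-labelled and 3.89 to 5.07 in control mice. Single genes with groups that did not overlap were Msln, Upk3b, Gpm6a and Cldn15, beside 1.42% of all genes in that direction. The groups of Wt1, Lrrn4, Muc16, Krt19, Bnc1 and Upk1b overlapped. With any 1 library left out, at least 9 of 10 were lower and the median lay between −1.42 and −1.01. Their median r to the 8 genes was 0.03 over the 8 libraries, and 0.90 with 8 of 8 above 0 without control 4 and SmoM2 3.

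Smooth muscle and myofibroblast markers were higher in 5 of 12 (median −0.14, 0 called), with a median r of 0.26 (0.68 without the 2 libraries). Pericyte markers were higher in 4 of 10 (median −0.26, 0 called), with a median r of −0.04 (0.33 without the 2 libraries). With 1 library left out, the smooth muscle median lay between −0.29 without SmoM2 3 and 0.06 without control 2, and the pericyte median between −0.41 without SmoM2 3 and −0.08 without SmoM2 1 or control 2. Schwann cell markers had 4 of 6 measured, 2 of them higher, with a median of −0.07 that lay between −0.20 and 0.34 with 1 library left out. Inflammatory response genes were higher in 9 of 16 (median 0.21, 0 called), with a median r of −0.28 (0.22 without the 2 libraries). Their median log2 fold change lay between −0.13 without SmoM2 2 and 0.52 without control 3.

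Genes induced by tissue dissociation were lower in 13 of 13, with 0 called and a median of −0.24. That count rested on single libraries: without SmoM2 4, 8 of 13 were lower (median −0.01), and without control 3, 7 of 13 were lower (median −0.03). SmoM2 4 had the lowest summed level, 16053 CPM, against 29250 to 33993 CPM in the other SmoM2-labelled and 26438 to 41144 CPM in the control mice, and control 3 had the highest. Their median r to the 8 genes was 0.12 over the 8 libraries, and 0.71 with 13 of 13 above 0 without control 4 and SmoM2 3. The part of these other cell types and of dissociation in the levels of the 8 genes was not tested.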

How the data were processed

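RNA of sorted YFP-positive lung cells from 8 mice was sequenced after enrichment with oligo(dT) beads, per the labels' protocols. The authors deposited an estimated count per Ensembl gene and library, not normalised. FastQC, HISAT, StringTie, DESeq and mm10 stand in the submitters' processing notes, with no version or role. The authors' deposited table gives their normalised mean signal per group, its ratio (fold change) and its log2, and a p-value with its adjusted form, per the file headers. Counts over median-of-ratios size factors gave those means to a relative difference of 2.28e-09, which sets the direction as SmoM2 over control. Column names show the group but not the animal.

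All 20162 genes left by filterByExpr were fitted with edgeR 4.0.16 (R 4.3.3; glmQLFit, robust, TMM factors, group as the only term), with Benjamini-Hochberg adjusted p under 0.05 as the call. The SE of a log2 fold change was derived from its F statistic. Intervals cover 95%. The log2 CPM used for r has a prior count of 2. Alternatives were DESeq2 1.42.0, limma 3.58.1 (voom), median-of-ratios factors, no filter, values divided by 5, sex as a term, and leaving out libraries. Symbols came from the reference for 99.3% of identifiers. The 8 genes and 20 further lists were chosen with earlier results of these data known. From each list the text names genes with an unadjusted p under 0.05 and the 2 with the highest mean CPM for the lists tied to single genes, while Sftpc, Epcam and Lrp3 were chosen after their values were seen. Some genes that this rule names in the other-cell-type lists are given by counts only, and some genes that it names are not reported here. The fit was checked on simulated counts. Every pair of libraries differed beyond sampling noise, and the chi-square statistic per degree of freedom lay between 22.8 and 104.6.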

Additional observations from a re-analysis of the deposited data

How the results depend on the processing

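In the 15 alternatives run, 0 of the 8 genes were called. Over all genes the call count was 0 except for 67 with DESeq2, and it ranged from 0 to 1 when 1 library was left out (1 without SmoM2 4). Slc7a10 stayed lower with an unadjusted p under 0.05 in 15 of 15 alternatives (log2 fold change −1.11 to −0.64, adjusted p 0.251 with DESeq2 to 0.9999 with edgeR), and Gyg stayed lower in 15 of 15 (−0.90 to −0.47) with such a p in 6. Inmt, Ces1d and Limch1 stayed lower in 15 of 15. The sign turned for Scn7a without control 3 (0.01), control 4 (0.091), SmoM2 1 (0.05) or SmoM2 4 (0.05), for Spon1 without control 4 (0.027), and for Tcf21 without control 4 (0.13) or, in an alternative chosen after seeing the data, without control 4 and SmoM2 3 together (0.030). The cause was not tested. With 1 library left out, log2 fold changes ranged from −0.28 to 0.027 for Spon1, −0.12 to 0.091 for Scn7a and −0.17 to 0.13 for Tcf21. Without control 4 and SmoM2 3 together, 7 of 8 genes were lower, the median was −0.18, and Slc7a10 and Gyg had log2 fold changes of −0.85 and −0.89 (unadjusted p 0.00183 and 0.0136, edgeR adjusted p 0.467 and 0.684). The order of the 8 genes by level changed when exon length was not used, for 6 of them. No paired analysis was possible because the column numbers do not tie the libraries to animals or pairs. With 4 mice per group, the intervals and not the missing calls bound the size of a change.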

Other observations

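In a fit with genotype and sex as terms, the fitted level of each of the 8 genes was lower in males than in females, by 0.11 to 0.64 on the log2 scale, and 0 of 8 passed the adjusted threshold, where 6 genes of all those tested did. The largest sex difference was that of Slc7a10, with a male minus female log2 value of −0.64 (unadjusted p 0.00654, edgeR adjusted p 0.943). Its mean was 17.8 CPM in SmoM2-labelled and 33.4 CPM in control males, and 27.9 CPM in SmoM2-labelled and 51.6 CPM in control females (2 mice each). Tcf21 followed with −0.34 (unadjusted p 0.0662, edgeR adjusted p 0.943). The 2 highest mice for most of the 8 genes, control 4 and SmoM2 3, were both female, and the females also included SmoM2 4, the lowest for 4 of the 8.

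Both Slc7a1 and Slc7a5, relatives of Slc7a10 named here after their values were seen, ran against the 8 genes across mice. Slc7a1, a carrier of cationic amino acids, had an r of −0.96 to the mean standardised level of the 8, and Slc7a5, a carrier of large neutral amino acids, an r of −0.94. Slc7a1 was at 52.5, 44.6, 25.0 and 45.9 CPM in SmoM2-labelled mice 1 to 4, against 38.9, 39.3, 37.4 and 21.5 CPM in control mice 1 to 4. Of the other alveolar fibroblast genes, Nebl (r = 0.97) and Col13a1 (r = 0.95) were most like the 8.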
